A study of Xenopus laevis with 7 samples.

Results

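The lips of the blastopore, the opening through which cells move inside the gastrula of the African clawed frog Xenopus laevis, were compared with the whole embryo. RNA sequencing values were available as RPKM, reads scaled by transcript length and by the library's mapped reads, for 44421 transcripts in 7 libraries. The dorsal lip and the ventral lip of experiment 1 were each set against the whole embryo library of the same experiment. Transcripts were kept where the whole embryo, or both lips of experiment 1, reached at least 5 RPKM. This left 10050 transcripts, 9878 through the whole embryo value and 172 through both lips alone. The whole embryo value at the edge was 5.0007 RPKM for Xelaev18004738m, the lowest kept, and 4.9975 RPKM for cables2.L, the highest left out. All embryos were wild type at stage 10.5, from Nasco frogs. The groups were 3 dorsal lip libraries and 3 ventral lip libraries, both dissected in Barth's solution, and 1 library of whole embryos. How many embryos made up a sample, and whether numbered samples had different parents, is not stated in the labels. The p-values below therefore reflect the scatter among these libraries, part or all of which may be technical.

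At this stage the dorsal lip holds the Spemann organizer, which secretes antagonists of BMP and Wnt ligands. The ventral lip holds the opposing center, where BMP signalling induces its own feedback inhibitors. Both lie in the marginal zone, between the animal cap, which forms epidermis and neural tissue, and the vegetal mass, which forms endoderm and carries the germ plasm inherited by the primordial germ cells. A whole embryo contains all of these territories, so a ratio of lip to embryo compares a cut-out piece with the body it was taken from. In such bulk samples, fewer cells of a type and less RNA per cell cannot be told apart.

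The whole embryo was sequenced once, and each lip once in experiment 1, so the ratios to the embryo have no replicate check and no test. A transcript was called higher or lower at a ratio of at least 2 or at most 0.5, and each ratio carries an exact 95% interval from recovered read numbers, which covers counting error only. Of the 10050 transcripts, 96.8% lay within 2-fold of the embryo in both lips, with median log2 ratios of -0.040 for the dorsal and -0.009 for the ventral lip. The dorsal lip was at least 2-fold above the embryo for 0.766% and at most 0.5 of it for 1.73%, and the ventral lip for 0.527% and 1.33%. The lips of experiments 2 and 3 were used to check direction against the same embryo library. They stand apart from experiment 1: both lips of experiment 1 lay above all 4 later lips for 3500 transcripts and below all 4 for 4006. Whether this gap takes part in the ratios given here was not tested. The later lips can also be compared with each other without the embryo or experiment 1, and all p-values below come from that comparison.

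Transcripts at a ratio of at most 0.5 in both lips numbered 58, those at 2 or more in both 21. Another 34 were at 2 or more in the dorsal lip and no higher than the embryo in the ventral lip, and 23 showed the mirror image. These are 0.577%, 0.209%, 0.338% and 0.229% of the transcripts kept, shares that the rule itself sets. A further 22 transcripts reached 2-fold in the dorsal lip with a ventral ratio between 1 and 2, and 9 did so with the sides exchanged. In every member the counting interval of each ratio past the 2-fold limit lay on that side of 1. Just inside and just outside the limits stood LOC100494211.L, at ratios of 0.499 dorsal and 0.259 ventral, and its partner LOC100494211.S, at 0.501 and 0.349.

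**Figure D1:**
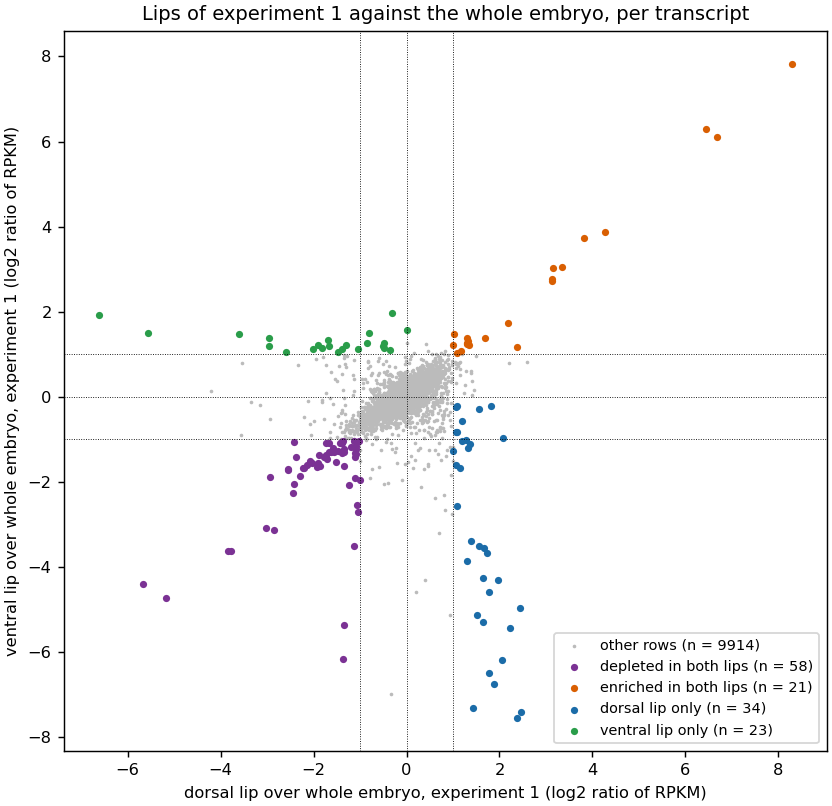
Log2 ratio of the dorsal lip (x axis) and of the ventral lip (y axis) to the whole embryo in experiment 1, 1 point per transcript, with dotted lines at 0 and at 2-fold. The 58 depleted and 21 enriched transcripts lie in opposite corners, and the 34 dorsal and 23 ventral ones along the 2 arms; 0 values are set at 3 reads.

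Germ plasm transcripts stood among the most depleted. The list of germ plasm and vegetal maternal RNAs held 15 transcripts above the minimum, and 5 of them (nanos1.L, ddx25.L, dazl.L, rtn3.S and velo1.L) were depleted in both lips, against 0.577% of all transcripts. The translational repressor nanos1.L had 0.512 RPKM in the dorsal and 1.23 RPKM in the ventral lip of experiment 1, against 26.1 RPKM in the embryo. These ratios of 0.0196 (95% interval 0.0107 to 0.0331) and 0.0473 (0.0325 to 0.0667) are 51-fold and 21.1-fold lower than the embryo, resting on 14 and 34 lip reads against 794. In the later lips nanos1.L measured 3.88 and 2.13 RPKM in dorsal and 10.6 and 8.77 RPKM in ventral samples. All lay below the embryo, as the rule for naming members required, and above the lips of experiment 1. Ventral lips held more nanos1.L than dorsal lips (log2 difference, dorsal minus ventral, -1.58, SE 0.24, limma adjusted p = 0.0127).

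The DEAD-box helicase ddx25.L stood at 1.24 RPKM dorsal and 1.46 RPKM ventral in experiment 1 against 17.9 RPKM in the embryo. The RNA-binding protein transcript dazl.L, required for germ cell development, stood at 1.29 and 1.06 against 9.26 RPKM. For both, the 4 later lips also lay below the embryo, between 2.18 and 4.1 RPKM for ddx25.L and between 0.561 and 1.46 RPKM for dazl.L, with ventral lips above dorsal lips in both experiments. The difference passed for dazl.L (-0.79, SE 0.13, limma adjusted p = 0.0211) and missed for ddx25.L (-0.63, SE 0.14, limma adjusted p = 0.0709), where the fit with the experiment as a block gave 0.015.

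The S copy of the reticulon gene rtn3 was depleted at ratios of 0.187 and 0.242 (5.13 RPKM dorsal, 6.65 RPKM ventral, 27.4 RPKM embryo). Its L copy was not, at 0.718 and 0.765 of 71.8 RPKM. For rtn3.S all later lips kept to a narrow band, 5.2 and 4.31 RPKM dorsal and 7.65 and 6.55 RPKM ventral. The vegetally localised RNA velo1.L behaved differently between experiments. It measured 8.83 RPKM dorsal and 10.96 RPKM ventral in experiment 1 against 27.1 RPKM in the embryo, but 32.0 and 21.4 RPKM in later dorsal and 47.9 and 40.9 RPKM in later ventral lips, so that only the dorsal lip of experiment 3 was below the embryo.

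Not all germ cell transcripts followed. The helicase ddx4.L, the frog vasa gene, had ratios of 0.898 dorsal and 0.907 ventral at 69.3 RPKM in the embryo, and the Piwi family member piwil2.L had 1.01 and 0.964 at 6.99 RPKM. The lipid droplet gene PLIN2 (Xelaev18010011m) had 0.574 and 0.796 of 174 RPKM, and the Wnt ligand wnt11b.L, maternal but also made zygotically, 1.2 and 1.02 of 43.6 RPKM. The list's median log2 ratio was -0.439 dorsal and -0.330 ventral in experiment 1, and 0.124, 0.060, -0.252 and 0.008 in the dorsal and ventral lip of experiment 2 and then of experiment 3. Between later lips, limma called 1 of the 15 dorsal and 4 ventral (1 and 8 with the block), where 2.72% and 1.46% of the 16479 transcripts tested passed (4.39% and 5.57% with the block).

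**Figure D2:**
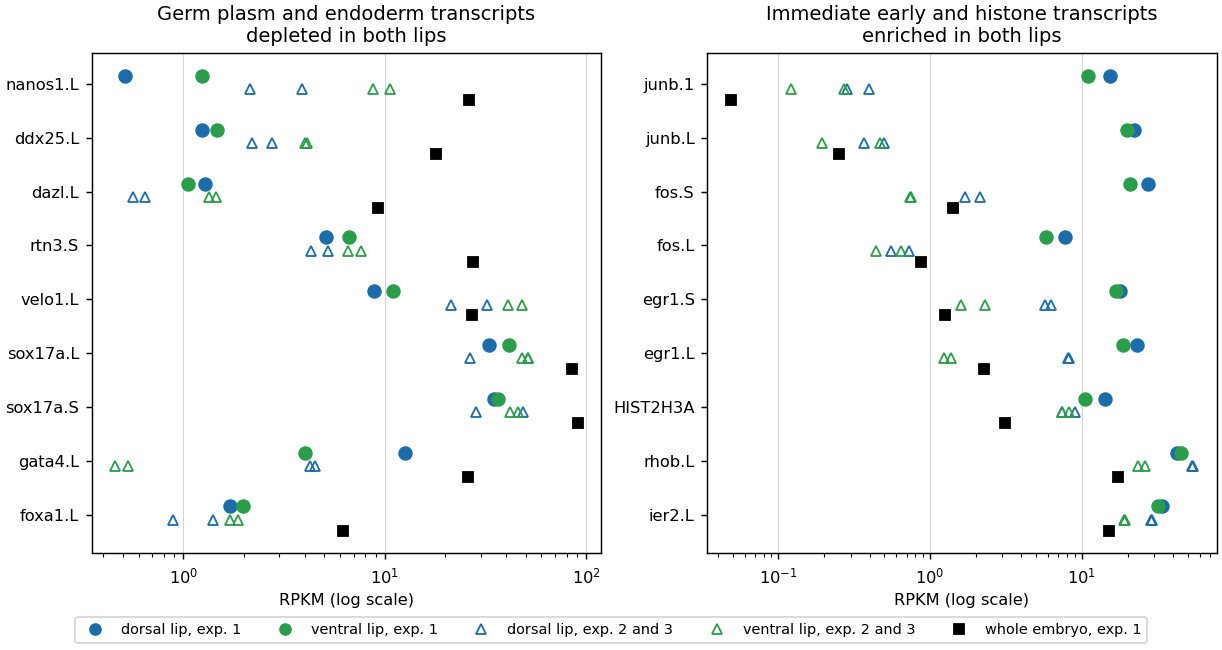
RPKM on a log scale for 9 depleted transcripts (left) and 9 enriched transcripts (right) in every library, with experiment 1 lips as filled circles, later lips as open triangles and the whole embryo as a black square; HIST2H3A is Xelaev18001465m. Later lips of nanos1.L lie between experiment 1 lips and the embryo, and those of junb.L and fos lie around the embryo, far below the experiment 1 lips.

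Endoderm transcripts formed another depleted group. Of 26 transcripts on the vegetal endoderm list, 4 were depleted in both lips, against 0.577% of all transcripts: both copies of sox17a, gata4.L and foxa1.L, which encode transcription factors of endoderm formation. The list's median log2 ratio was -0.422 in the dorsal and -0.708 in the ventral lip of experiment 1, against -0.040 and -0.009 for all transcripts. Its summed level was 1321 RPKM dorsal and 1154 RPKM ventral against 1790 RPKM in the embryo, and between 1054 and 1703 RPKM in later lips.

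The copies of sox17a, an endoderm determinant, moved in parallel. Copy sox17a.L had 33.0 RPKM in the dorsal and 41.4 RPKM in the ventral lip against 85.1 RPKM in the embryo, and sox17a.S had 34.7 and 36.4 against 91.0 RPKM. Later lips ranged from 26.5 to 51.2 RPKM for sox17a.L and from 28.4 to 48.5 RPKM for sox17a.S. All were below the embryo, as the naming rule required. Dorsal and ventral later lips overlapped, and neither copy passed between them (limma adjusted p = 0.486 and 0.65).

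The depleted GATA transcripts, by contrast, were lower in ventral than in dorsal lips. The transcript gata4.L had 12.6 RPKM dorsal and 4.0 RPKM ventral in experiment 1 against 26.0 RPKM in the embryo. In later lips it had 4.52 and 4.25 RPKM dorsal against 0.457 and 0.530 RPKM ventral, a log2 difference of 2.30 (limma adjusted p = 0.000124). Its partner gata4.S was at 0.600 and 0.311 of the embryo, outside the limit on the dorsal side. GATA2 (Xelaev18025905m) and GATA3 (Xelaev18020919m), named by their human matches and known also from ventral ectoderm, were depleted at ratios of 0.460 and 0.398, and of 0.471 and 0.447. Both were higher in later dorsal than ventral lips, by 2.23 (limma adjusted p = 0.000418) and 1.49 (limma adjusted p = 0.00418) on the log2 scale. The 4 later lips of both lay below the embryo. Their second transcripts were not in the class. In experiment 1, GATA2 Xelaev18023995m was at 0.444 dorsal and 0.713 ventral, the opposite order, and GATA3 Xelaev18017847m at 1.06 and 0.379. In later lips both of these were also higher dorsally, by 3.33 (limma adjusted p = 0.000113) and 2.34 (limma adjusted p = 0.000125) on the log2 scale.

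Over the whole endoderm list, limma called 15 of 26 transcripts dorsal and 1 ventral in the later lips, against 2.72% and 1.46% of all tested, with a median log2 difference of 0.779 against -0.056 over all transcripts tested. Both copies of cer1 and of hhex were among the dorsal calls. Neither copy of sox17a was called, nor were mixer.S and the transcripts named MIXL1 by their human match, so the whole list did not share the difference. The mesendoderm homeobox genes were within 2-fold of the embryo in experiment 1: mix1.L had ratios of 0.762 and 0.819 at 246 RPKM in the embryo, and mixer.L of 0.708 and 0.612 at 264 RPKM. In later lips mixer.L had 146 and 144 RPKM dorsal and 46.2 and 56.6 RPKM ventral. The secreted head inducer cer1.S had 1.15 dorsal and 0.0419 ventral of 160 RPKM, so that it was low in the ventral lip and near the embryo in the dorsal lip of experiment 1. Later dorsal lips had 69.7 and 72.7 RPKM of it.

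Of the 58 depleted transcripts, 46 belonged to none of the lists and 15 had no human match. A large reduction in both lips outside the germ plasm list was that of LOC100498538-like.L, at 1.26 RPKM dorsal and 1.72 RPKM ventral against 45.5 RPKM in the embryo. In the later lips it stayed at 2.66 and 2.12 RPKM dorsal and 3.85 and 3.01 RPKM ventral, so that all 6 lips were below the embryo. The most abundant members were Xelaev18002673m, with 132 RPKM dorsal and 108 RPKM ventral against 337 RPKM, and Xelaev18000237m, with 86.0 and 85.5 against 247 RPKM, both without a human match. Both were higher in later dorsal than ventral lips (0.54, SE 0.064, limma adjusted p = 0.00376, and 0.63, SE 0.11, limma adjusted p = 0.0205). Transcripts without their own symbol, and others outside the naming rule, were chosen after their values were seen.

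Several enzymes and transporters were in the same class. Hydroxyacid oxidase hao1.L had 5.74 RPKM dorsal and 6.83 RPKM ventral against 18.7 RPKM in the embryo, and was higher in later dorsal lips (2.16 and 2.36 RPKM) than ventral lips (0.508 and 0.745 RPKM; 1.3, SE 0.15, limma adjusted p = 0.00412). The creatine transporter transcript SLC6A8 (Xelaev18041735m) had 11.9 and 10.9 against 25.5 RPKM and a later difference of 2.35 (limma adjusted p = 0.000259). A second transcript of that name, Xelaev18003554m, was at 2.093 RPKM dorsal, 0.130 RPKM ventral and 5.36 RPKM in the embryo. The proprotein convertase pcsk6.L, whose family processes TGF-beta ligands, had 2.42 and 2.78 against 13.2 RPKM and went the other way between later lips, at 3.95 and 3.14 RPKM dorsal and 9.29 and 7.32 RPKM ventral (-1.12, SE 0.16, limma adjusted p = 0.0102). The exchange factor plekhg5.L had 7.26 RPKM dorsal, 2.60 RPKM ventral and 15.2 RPKM in the embryo, with the largest later difference among the 50 members tested (4.02, SE 0.18, limma adjusted p = 3.65e-05). Its later dorsal lips, at 19.99 and 14.79 RPKM, lay on either side of the embryo. Its partner plekhg5.S had experiment 1 ratios of 0.576 dorsal and 0.265 ventral, outside the limit on the dorsal side.

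The integrin transcript itga4.L set experiments apart. It measured 2.99 RPKM dorsal and 3.80 RPKM ventral in experiment 1 and 8.13 RPKM in the embryo, but 0.00582 and 0.00586 RPKM in later dorsal lips and 0 in both later ventral lips. The glycolytic enzyme transcript pgam1.S was instead higher in later lips, at 3.02 and 4.31 RPKM in experiment 1 lips, 13.8 and 8.66 RPKM in later dorsal lips and 32.5 and 26.9 RPKM in later ventral lips, against 11.2 RPKM in the embryo.

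In all, 44 of the 58 depleted transcripts lay below the embryo in all 4 later lips, 2 above in all 4 and 12 on both sides, where 40.6% of all transcripts lay below in all 4 and 42.9% above. The later lips share the embryo library with the ratios that chose the members, so this count is a check of direction and not an independent one. Median ratios of the class were 0.320 dorsal and 0.349 ventral in experiment 1, and 0.348, 0.371, 0.263 and 0.337 in the dorsal and ventral lip of experiment 2 and then of experiment 3. Within experiment 1, 40 of the 58 were lower in the dorsal than in the ventral lip, as were 58.4% of all transcripts. Among later lips, 14 were higher in dorsal lips in both experiments and 38 in ventral lips, against 25.6% and 42.7% of all transcripts. Of the 50 that passed the filter on low values, 9 were called dorsal and 14 ventral by limma, against 2.72% and 1.46% of all tested. The ventral count was 27 with the block, 32 without dorsal lip replicate 2 and 6 without ventral lip replicate 2. The dorsal and ventral counts were 6 and 0 with no filter on low values, and 0 and 0 with all 3 experiments. The fit with all 3 experiments had no term for the experiment, so the gap between experiment 1 and later lips entered its scatter.

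**Figure D3:**
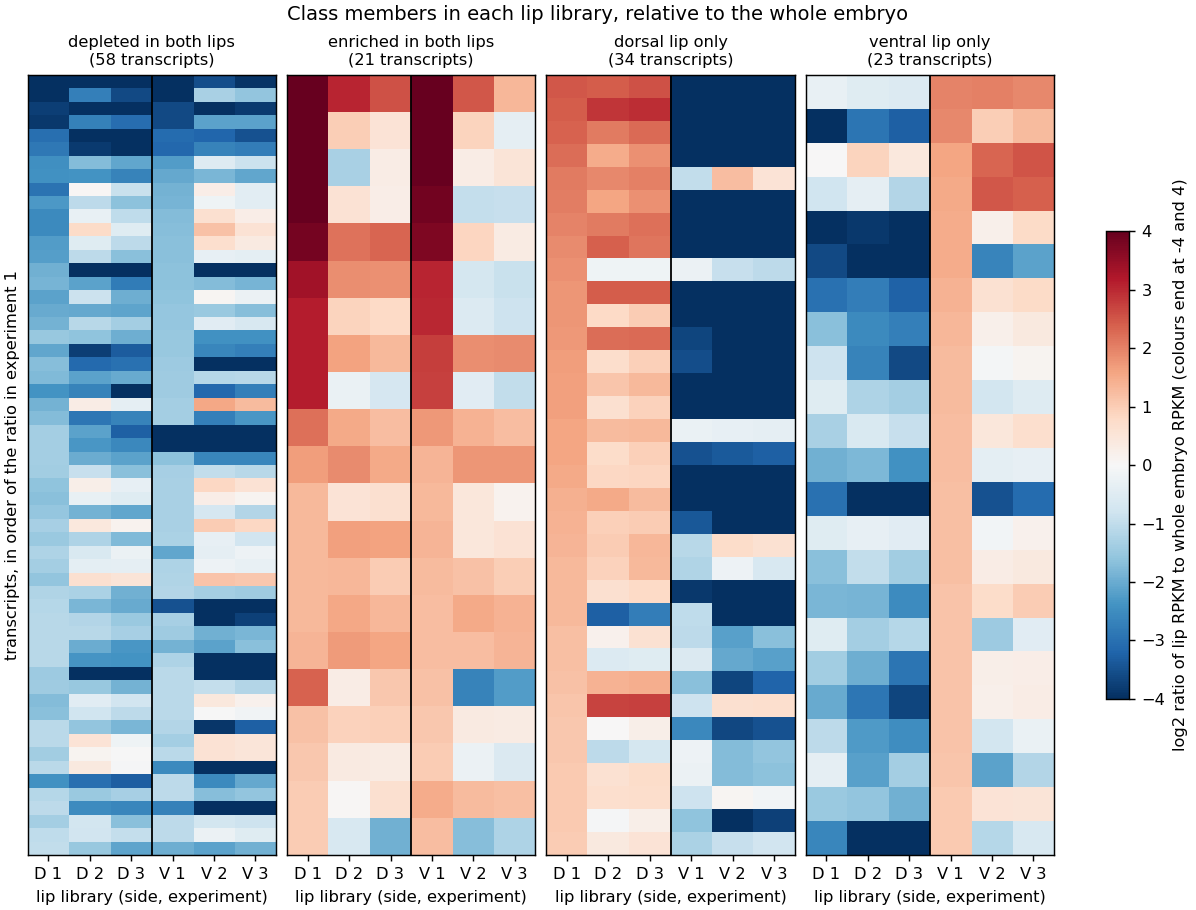
Log2 ratio of each lip library to the whole embryo for the members of the 4 classes, 1 row per transcript and 1 column per library (D dorsal, V ventral, with the experiment number), red above and blue below the embryo, with 0 values set at 3 reads. In the columns of experiment 1, colours follow the rule; in the later columns most depleted members stay blue, and most of the strongly enriched ones at the top of the second panel turn paler.

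The 21 transcripts enriched in both lips were led by immediate early genes, the transcription factor genes switched on within minutes by growth factors, stress or wounding. Of 31 transcripts on the immediate early and injury list, 7 were enriched in both lips: junb.1, junb.L, fos.L, fos.S, egr1.L, egr1.S and ier2.L, against 0.209% of all transcripts. Apart from ier2.L, these had under 5 RPKM in the embryo and were kept only because both lips reached 5 RPKM. Transcripts kept in that way lie above the embryo by the rule, so the count of 7 is in part set by it. Another 7 of the 21 were named as histones by their human match. The authors' deposited table for this comparison presents such transcripts as a response to surgery.

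The AP-1 subunit gene junB had ratios far above most of the class. Transcript junb.1 had 15.2 RPKM in the dorsal and 10.99 RPKM in the ventral lip of experiment 1, against 0.0485 RPKM in the embryo, which is 4 reads. The ratios were 314 (95% interval 122 to 1150) and 227 (88.1 to 833), so their size is poorly fixed. Transcript junb.L had 22.1 and 19.8 RPKM against 0.252 RPKM, or 26 reads, with ratios of 87.6 (59.6 to 134) and 78.6 (53.5 to 121). In the later lips junb.1 was between 0.122 and 0.398 RPKM and junb.L between 0.195 and 0.496 RPKM, far below the lips of experiment 1. For junb.1 these values were still above the embryo, and for junb.L they lay on either side of it.

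Another AP-1 subunit, Fos, was also far higher in experiment 1. The copy fos.S had 27.3 RPKM dorsal and 20.9 RPKM ventral against 1.43 RPKM in the embryo (ratios 19.2 and 14.6), and fos.L had 7.71 and 5.78 against 0.877 RPKM (8.78 and 6.59). In later lips fos.S had 2.15 and 1.70 RPKM dorsal and 0.734 and 0.746 RPKM ventral. All 4 later values of fos.L, 0.721 and 0.552 RPKM dorsal and 0.647 and 0.443 RPKM ventral, were below the embryo. Between later lips fos.S was higher dorsally (0.96, SE 0.15, limma adjusted p = 0.0136).

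The zinc finger gene egr1 kept part of its level in the later dorsal lips. The copy egr1.L had 23.1 RPKM dorsal and 18.8 RPKM ventral in experiment 1 against 2.26 RPKM in the embryo, and egr1.S had 17.8 and 16.8 against 1.26 RPKM. Later dorsal lips held 8.17 and 8.09 RPKM of egr1.L and 5.70 and 6.28 RPKM of egr1.S, above the embryo. Later ventral lips held 1.38 and 1.23 RPKM of egr1.L, below the embryo, and 2.29 and 1.59 RPKM of egr1.S, above it. The later dorsal excess passed for both copies, at 2.26 (limma adjusted p = 0.000105) and 1.42 (limma adjusted p = 0.00404).

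Among abundant members with their own symbol, rhob.L and ier2.L had all later lips above the embryo, a direction that the naming rule required. The small GTPase gene rhob.L had 42.6 RPKM dorsal and 45.0 RPKM ventral against 17.4 RPKM in the embryo, at ratios of 2.46 (2.25 to 2.68) and 2.59 (2.38 to 2.82). In later lips it had 54.3 and 53.0 RPKM dorsal and 23.5 and 26.0 RPKM ventral (1.1, SE 0.068, limma adjusted p = 0.000159). The immediate early gene ier2.L had 33.7 and 31.5 against 14.98 RPKM, and 28.4 and 28.9 RPKM in later dorsal and 19.2 and 18.8 RPKM in later ventral lips (0.58, SE 0.062, limma adjusted p = 0.00231). Both were thus higher in dorsal than in ventral lips in the later experiments, whereas the lips of experiment 1 differed little. The other copy of rhob did not share this pattern. In experiment 1 rhob.S was outside the class, at ratios of 1.93 dorsal and 1.47 ventral to 27.1 RPKM in the embryo. All its later lips lay below the embryo, at 17.7 and 18.3 RPKM dorsal, with the ventral lip higher in both experiments.

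Further members were the immunoresponsive gene IRG1 (Xelaev18038702m), with 7.43 RPKM dorsal and 6.87 RPKM ventral against 0.841 RPKM, and the tetraspanin tspan8.L, with 8.39 and 5.66 RPKM and no read in the embryo. Set against 3 reads, the floor for a count of 0, tspan8.L had ratios of 102 in the dorsal and 68.9 in the ventral lip. The counting intervals of tspan8.L started lower, at 82.4 dorsal and 55.5 ventral, and had no upper end. Transcript tspan8.L had 0.0333 RPKM in 1 later dorsal lip and 0 in the other 3 later lips.

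The list also held transcripts at 2-fold or more on 1 side only, among them 2 KLF2 transcripts of the ventral class described below. Phosphatase gene dusp1.L had 55.3 RPKM dorsal and 33.1 RPKM ventral against 26.5 RPKM in the embryo. Transcript gadd45g.S had ratios of 2.62 and 1.53 at 19.4 RPKM in the embryo, and ier5.L of 1.15 and 1.33 at 52.5 RPKM. The Krüppel-like gene klf6.S was depleted in both lips, at 0.434 and 0.444 of 5.04 RPKM. The list's median log2 ratio was 0.322 dorsal and 0.438 ventral in experiment 1 and between -0.038 and 0.141 in later lips. The heat shock and stress list had none of its 12 transcripts in any class, and its medians were 0.050 and -0.123. The chaperone hspa8.S, its most abundant member, had ratios of 1.13 and 1.06 at 583 RPKM in the embryo.

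The enriched histone transcripts stayed closer to their experiment 1 levels in later lips than the AP-1 genes did. The 7 enriched histones had embryo levels between 2.155 and 5.003 RPKM, and ratios between 2.12 and 4.56 in the dorsal and between 2.05 and 3.34 in the ventral lip. In 6 of the 7, all later lips lay above the embryo, as they did for 42.9% of all transcripts. The same held for 6 of the other 14 enriched transcripts, among them junb.1, and for 32 of the 40 histone transcripts kept. Histone H3 Xelaev18001465m (HIST2H3A) had 14.3 RPKM dorsal and 10.5 RPKM ventral against 3.14 RPKM, and 8.98 and 7.38 RPKM in later dorsal and 8.24 and 7.42 RPKM in later ventral lips. Over all 40 histone transcripts kept, 37 were above the embryo in both lips of experiment 1, as were 34.4% of all transcripts, with median log2 ratios of 0.53 dorsal and 0.63 ventral. Histones under 5 RPKM in the embryo were kept only through both lips, so they lie above the embryo by the rule. Among these were all the enriched histones but Xelaev18002345m. The count of 37 and the medians are thus in part set by the rule. Libraries were made from polyadenylated RNA, which replication-dependent histone messages mostly lack. Whether selection for that tail takes part in these ratios was not tested.

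Of the 21 enriched transcripts, 12 lay above the embryo in all 4 later lips and 2 below in all 4, against 42.9% and 40.6% of all transcripts. All members but rhob.L, ier2.L and Xelaev18002345m had under 5 RPKM in the embryo, unlike most transcripts kept. That low value is also the denominator for the later lips, so this count is not an independent check. The counts of later lips given above for histones and other enriched transcripts share this limit. Members were also chosen for high lips of experiment 1, which bears on the comparisons with experiment 1 that follow. Both lips of experiment 1 were above all 4 later lips for 15 of the 21 (71.4%), and for 34.8% of all transcripts. Median ratios were smaller in later lips, with values of 4.56 dorsal and 2.80 ventral in experiment 1 and 1.97, 1.36, 2.01 and 1.27 in the dorsal and ventral lip of experiment 2 and then of experiment 3. Of the 17 that passed the filter on low values, a mean of at least 1 RPKM in the 4 later lips, limma called 7 dorsal and 0 ventral (8 and 1 with the block), against 2.72% and 1.46% of all tested. The dorsal count was 3 with no filter on low values and 0 with all 3 experiments.

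The authors' deposited table of transcripts raised in both lips has 744 entries, of which 734 matched the expression table by name. Most are rare: the median entry had 7 reads in the dorsal lip, 6 in the ventral lip and 2 in the embryo, and 498 of the 734 had at most 3 embryo reads. Of the 734, 303 had all 4 later lips above the embryo. Among the 10050 transcripts kept, which leave out most of these entries, 42.9% did. The minimum of 5 RPKM was passed by 21 entries. The 21 included 20 of the 21 transcripts enriched here. The exception was tspan8.L, at 0 in the embryo, and the listed transcript not called here was ATP1B2 (Xelaev18019679m), at 2.29 dorsal and just under 2 ventral. The deposited ratios were 1.037 times the dorsal and 1.015 times the ventral RPKM ratios for the matched entries, so that the authors' deposited table gives 325 and 230 for junb.1. Both sets of ratios come from the same libraries, so their overlap is not an independent check.

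The 34 transcripts above the embryo in the dorsal lip only contained the organizer. Of 30 transcripts on the Spemann organizer list, 14 were in this class, against 0.338% of all transcripts, and none was in the other 3 classes. The list summed to 3137 RPKM in the dorsal and 557 RPKM in the ventral lip of experiment 1 against 1468 RPKM in the embryo. In the class, median ratios were 2.91 dorsal and 0.0918 ventral, and 18 of the 34 were at 0.1 or less of the embryo in the ventral lip. Of all transcripts, 1.33% were at 0.5 or less there. The organizer list was thus high in the lip labelled dorsal and low in the lip labelled ventral.

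The BMP antagonists chordin and noggin gave the 2 highest dorsal ratios. Chordin, which binds BMP ligands outside the cell, had 229 RPKM dorsal and 0.244 RPKM ventral against 41.2 RPKM in the embryo for Xelaev18027420m, ratios of 5.55 (5.40 to 5.72) and 0.00591 (0.00398 to 0.00845). Its later levels were 222 and 241 RPKM dorsal against 0.228 and 0.0845 RPKM ventral. Noggin, nog.L, had 31.3 and 0.185 against 5.80 RPKM, ratios of 5.39 and 0.0319, and later levels of 41.8 and 44.6 RPKM dorsal against 0.156 and 0.2004 RPKM ventral. The chordin ratio of 5.55 was the highest dorsal value of the class.

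A second chordin transcript, Xelaev18029538m, had ratios of 4.15 and 0.0138. Transcription factors overlapped with it in their ratios. The homeobox gene goosecoid had 187 RPKM dorsal, 2.41 RPKM ventral and 47.7 RPKM in the embryo for gsc.L, and 139, 3.301 and 42.0 RPKM for gsc.S. The head gene OTX2 had ratios of 4.67 and 0.0232 (Xelaev18041108m) and of 2.60 and 0.0951 (Xelaev18039840m).

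Ligands and receptors formed another group. The BMP family ligand admp.S had 126 RPKM dorsal and 1.03 RPKM ventral against 40.6 RPKM in the embryo, and admp.L had 51.7 and 0.633 against 15.1 RPKM. Later dorsal lips of both stood lower than experiment 1, at 63.9 and 76.2 RPKM for admp.S and 26.3 and 30.5 RPKM for admp.L, and above the embryo. The Wnt receptor gene fzd8 had ratios of 3.19 and 0.0850 (fzd8.L) and of 2.96 and 0.0886 (fzd8.S), and the Wnt antagonist dkk1.S of 2.86 and 0.0284. A group of 3 transcripts named NODAL by their human match, which the table describes as Xnr3, had ratios from 2.70 to 3.69 dorsal and from 0.00628 to 0.0110 ventral (Xelaev18018866m, Xelaev18018867m, Xelaev18018868m). Reads shared by such near-identical copies could be placed on any of them. The membrane protein lrig3.L had 2.45 and 0.0694, and the lysophosphatidic acid receptor lpar6.S 2.30 and 0.484.

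Both copies of admp, fzd8 and gsc were in the class, out of 10 genes with both copies kept. For the Notch effector hes1.L the ratios were 2.96 dorsal and 0.826 ventral, and for a second transcript matched to HES1 (Xelaev18019219m) 4.22 and 0.509. The Wnt antagonist sfrp2.L had 2.57 and 0.467, while later lips differed by only 0.49 (limma adjusted p = 0.0683).

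The dorsal direction was tested in the later lips, which had no part in setting the class. They did take part in naming: members with their own symbol were named where later dorsal lips were above and later ventral lips below the embryo. For gsc.L and nog.L the later direction was thus set by the naming rule, and the counts over the class do not depend on it. All 34 were higher in dorsal than in ventral lips in both experiments, as 25.6% of all transcripts were, and limma called 32 dorsal and 0 ventral, against 2.72% and 1.46%. The called differences lay between 0.66 and 8.47 on the log2 scale, with a median of 4.30. The 2 not called were sfrp2.L and prdm14.S (0.66, SE 0.15, limma adjusted p = 0.0799), and both passed with the block, at 0.0287 and 0.0126. Chordin Xelaev18027420m had 8.47 (limma adjusted p = 2.04e-07), gsc.L 7.52 (1.01e-07) and nog.L 6.01 (5.91e-07). Over the organizer list 28 of 30 were dorsal and 1 ventral. By the adjusted p of the authors' deposited table, 33 of the 34 were dorsal, where 2.33% of transcripts were dorsal and 1.05% ventral.

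Against the embryo, 29 of the 34 stayed above it in both later dorsal lips, as 46.1% of all transcripts did. This count uses the embryo library that set the class, so it is not an independent check. The 4 below in both were SLC34A2 (Xelaev18005184m), TSC22D3 (Xelaev18038497m), YRDC (Xelaev18038703m) and prdm14.S. The phosphate transporter SLC34A2 had 38.9 RPKM dorsal and 7.90 RPKM ventral against 15.9 RPKM in experiment 1, but 1.67 and 2.35 RPKM in later dorsal and 0.172 and 0.184 RPKM in later ventral lips. Its dorsal excess passed in the later lips all the same (1.87, SE 0.17, limma adjusted p = 0.000932).

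The 23 transcripts above the embryo in the ventral lip only included genes of the BMP synexpression group, which share their expression with BMP4. Of 29 transcripts on the ventral center and BMP list 10 were in this class, against 0.229% of all transcripts, and 1 was depleted in both lips. The list summed to 841 RPKM in the dorsal and 2652 RPKM in the ventral lip of experiment 1 against 1618 RPKM in the embryo. Median ratios of the class were 0.361 dorsal and 2.34 ventral, and its highest ventral ratio was 3.92.

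Secreted and membrane inhibitors of BMP signalling were among its members. Sizzled, which inhibits the proteases that degrade Chordin, had 0.126 RPKM dorsal and 46.9 RPKM ventral against 12.4 RPKM in the embryo for szl.S, and 0.413 and 55.2 against 19.6 RPKM for szl.L. The ventral ratios were 3.79 (3.4 to 4.22) and 2.81. The pseudoreceptor bambi.L had 6.80 RPKM dorsal and 139 RPKM ventral against 53.2 RPKM, and bambi.S 10.5 and 92.8 against 39.7 RPKM. The inhibitory Smad transcript smad7-like.L had ratios of 0.314 and 2.28. Later ventral lips kept szl.S (24.6 and 30.2 RPKM), szl.L (22.8 and 33.2 RPKM) and bambi.L (81.3 and 90.4 RPKM) above the embryo, but not bambi.S (30.0 and 31.3 RPKM).

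Homeobox genes that BMP signalling induces made up a second group. Transcript Xelaev18034617m, 1 of 4 named VENTX by their human match, had 27.4 RPKM dorsal and 215 RPKM ventral against 97.3 RPKM in the embryo, and another, Xelaev18036901m, 45.6 and 197 against 81.7 RPKM. Both copies of dlx5 were in the class, dlx5.L with 3.03 RPKM dorsal and 24.7 RPKM ventral against 9.73 RPKM, and dlx5.S with 7.35 and 42.5 against 20.4 RPKM. The gene msx1 departed from these. Copy msx1.S had 0.948 RPKM dorsal and 32.2 RPKM ventral against 11.6 RPKM, and msx1.L 1.19 and 21.5 against 9.32 RPKM. In later ventral lips, however, msx1.S had 1.87 and 2.63 RPKM and msx1.L 0.841 and 1.103 RPKM, well below the embryo.

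Ectodermal regulators were also here. The epidermal factor grhl3.L had 10.4 RPKM dorsal and 59.7 RPKM ventral against 25.5 RPKM in the embryo, and later 16.6 and 13.6 RPKM dorsal against 35.0 and 41.0 RPKM ventral (-1.31, SE 0.12, limma adjusted p = 0.000909). TFAP2A (Xelaev18033390m) had ratios of 0.482 and 2.19, and dlx3.S of 0.165 and 2.06. In all, 5 of 46 transcripts on the epidermal and superficial ectoderm list were in this class, against 0.229% of all transcripts, and 2, GATA2 and GATA3, were depleted in both lips, against 0.577%. The 2 most abundant transcripts of that list were near the embryo in both lips. The adhesion molecule epcam.S had ratios of 1.18 and 1.11 at 604 RPKM, and the claudin transcript CLDN7 (Xelaev18019668m) 1.25 and 1.19 at 430 RPKM. The list summed to 3938 RPKM dorsal and 4232 RPKM ventral against 3656 RPKM, and to between 3450 and 3829 RPKM in later lips. At 0.5 or less of the embryo were 13 of the 46 in the dorsal and 3 in the ventral lip, against 1.73% and 1.33% of all transcripts. No member reached 2-fold in the dorsal lip. The list's median log2 ratio was -0.107 dorsal and 0.152 ventral, and later -0.452 and -0.351 dorsal and -0.034 and 0.022 ventral.

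Remaining members included 2 transcripts matched to the zinc finger gene KLF2. Transcript Xelaev18001123m had 6.73 RPKM dorsal and 32.8 RPKM ventral against 8.36 RPKM, the highest ventral ratio of the class, and Xelaev18006666m 3.83 and 19.1 against 6.72 RPKM. In later ventral lips they reached 33.6 and 31.7 RPKM, and 37.6 and 35.4 RPKM. The heparan sulfotransferase hs3st1.L had ratios of 1.00 and 2.96. Its later dorsal lips, at 13.5 and 9.76 RPKM, were also above the embryo, at 7.225 RPKM. Of the 23 members, 22 were below the embryo in both later dorsal lips, with no share over all transcripts computed. Of the 9883 transcripts outside all groups, 4780 were below it in the dorsal lip of experiment 2 and 4999 in that of experiment 3. The Notch ligands dll1.L and dlc.L had 0.708 and 2.30, and 0.781 and 2.15. The mesodermal T-box gene brachyury had 18.3 RPKM dorsal and 56.4 RPKM ventral against 25.6 RPKM for t.L, and its partner t.S ratios of 0.993 and 1.43 at 78.2 RPKM.

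In the later lips 22 of the 23 were higher in ventral than in dorsal lips in both experiments, as 42.7% of all transcripts were, and of the 22 that passed the filter on low values limma called 19 ventral and 0 dorsal, against 1.46% and 2.72%. The called differences lay between -4.32 and -0.64, with a median of -2.40. Sizzled szl.L had -4.32 (limma adjusted p = 0.00022), bambi.L -3.59 (2.02e-05), VENTX Xelaev18034617m -3.04 (0.000197) and KLF2 Xelaev18001123m -2.38 (8.82e-06). For szl.L, bambi.L and grhl3.L the later direction was set by the naming rule, which used the later lips. Not called were dll1.L, t.L and dlc.L, with differences of -0.41, -0.27 and -0.09 (limma adjusted p = 0.169, 0.689 and 0.925). The exception in direction was t.L, at 10.1 and 11.7 RPKM in later dorsal and 9.29 and 18.6 RPKM in later ventral lips, which overlap.

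The share of ventral members above the embryo in later ventral lips was close to that of all transcripts. In both later ventral lips 13 of the 23 were above it, as 49.7% of all transcripts were, and 8 were below it in both. Of the 9883 transcripts outside all groups, 4651 were below it in the ventral lip of experiment 2 and 4686 in that of experiment 3. The counts of members use the same embryo library that set the class. Class medians were 1.16 and 1.24 in the later ventral lips against 2.34 in experiment 1, while those of the dorsal class were 1.91 and 2.2 in later dorsal lips against 2.91. A difference between the classes in this respect was not tested. Rescaling each library to a common median ratio shifts later lips by -0.153 and -0.072 (dorsal) and -0.171 and -0.143 (ventral) on the log2 scale relative to the embryo, and experiment 1 lips by 0.052 and 0.021.

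**Figure D4:**
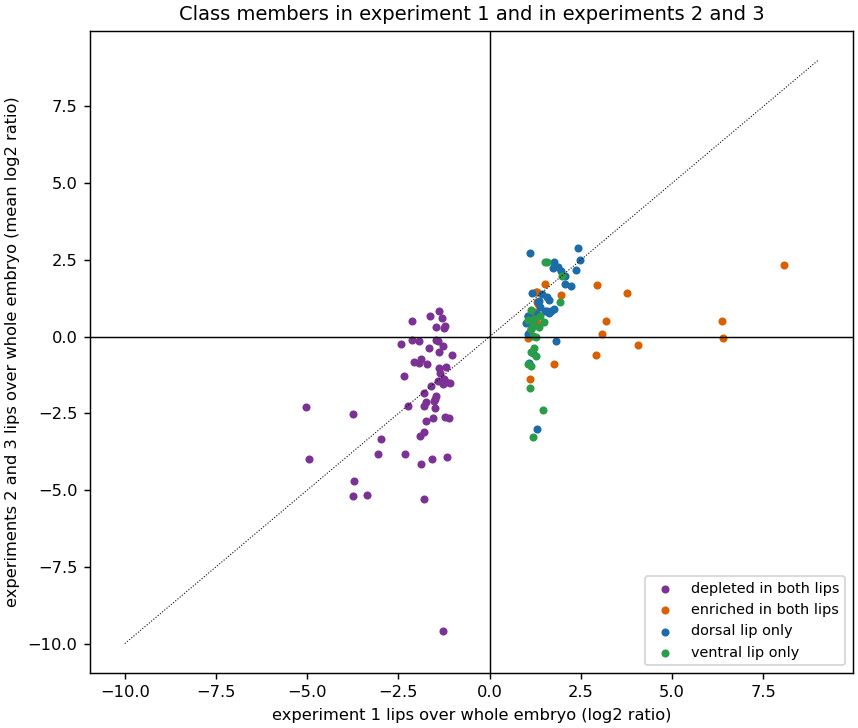
Mean log2 ratio to the whole embryo in experiments 2 and 3 (y axis) against that in experiment 1 (x axis) for the 136 class members, over both lips for the classes of both lips and over the lip concerned for the classes of 1 lip; the dotted line marks equal ratios and 0 values are set at 3 reads. Depleted members lie mostly in the lower left, the enriched members beyond 6 on the x axis lie between -0.044 and 2.347 on the y axis, and several ventral members lie below 0.

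The lists of general tissue markers show how far the lips resemble the embryo. The marginal zone mesoderm list, which describes the position of both lips, had 1 of 30 transcripts in any class (t.L). Its median log2 ratio was -0.177 dorsal and 0.296 ventral in experiment 1, and between -0.565 and 0.041 later. The T-box transcript TBX6 (Xelaev18007613m), its most abundant member, had ratios of 0.839 and 0.755 at 437 RPKM in the embryo. The ventral Wnt ligand wnt8a.L, on the same list, had 0.0539 dorsal and 1.1 ventral of 65.4 RPKM, so that it was low in the dorsal lip and near the embryo in the ventral lip.

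The neural ectoderm list had 3 of 23 transcripts in the dorsal class, against 0.338% of all transcripts, and none in the other 3, with medians of 0.662 dorsal and -0.703 ventral. Transcript Xelaev18042169m (SOX3), a pan-neural factor, had ratios of 1.79 and 1.21 at 188 RPKM. Later lips held between 532 and 585 RPKM of it on either side, against the same 188 RPKM in the embryo. Ribosomal protein transcripts had none of 149 in any class and medians of 0.265 dorsal and 0.125 ventral, and oxidative phosphorylation transcripts none of 90 and medians of 0.152 and 0.099. In later lips these medians lay between 0.373 and 0.479 for ribosomal and between 0.373 and 0.457 for oxidative phosphorylation transcripts, so that both lists were above the embryo in all 6 lips.

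**Figure D5:**
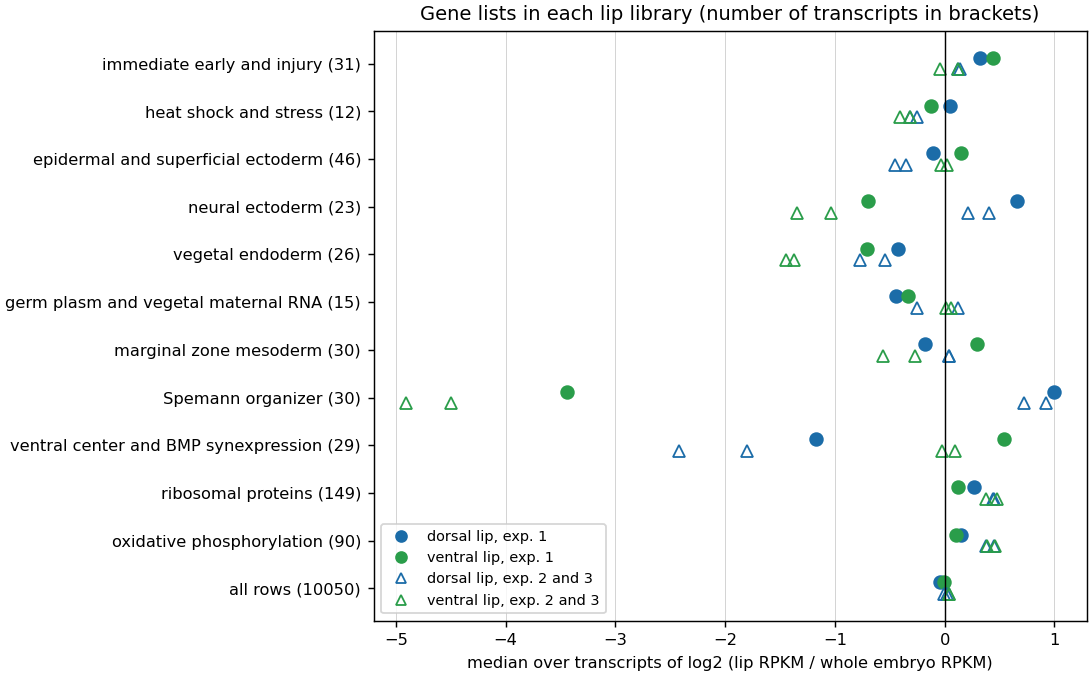
Median log2 ratio to the whole embryo of each gene list in the 6 lip libraries, with experiment 1 as filled circles and experiments 2 and 3 as open triangles, blue for dorsal and green for ventral lips; brackets give the number of transcripts. The organizer list spans from 0.998 in the dorsal lip to -3.446 in the ventral lip of experiment 1, the endoderm list is below 0 in all 6 libraries, and the immediate early list is highest in experiment 1.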

How the data were processed

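RNA was polyA-selected and sequenced as single-end reads, per the labels' protocols. The submitters' processing notes name TopHat2 2.09 and DESeq; the sources used here give no strandedness, counter or treatment of multi-mapping reads, so near-identical copies may share reads. The authors deposited RPKM per transcript of JGI9.1 gene models, per the file headers, with their own adjusted p-values for dorsal against ventral lips and, in a separate table, ratios of lip to embryo. Gene names are the authors' own or the human match they list.

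Whole reads were recovered from the RPKM steps for 35325 of 35326 transcripts above 0, within a tolerance of 0.0001 reads. Where several lengths gave whole reads the shortest was taken, so lengths and reads of transcripts with few reads may be understated. The low read numbers given for the authors' table of transcripts raised in both lips carry this limit. Recovered totals were 26438048 to 37999130 per library, and 1 read on 1 kb was worth 0.0257 to 0.0369 RPKM. Intervals (Clopper-Pearson, 95%) and the floor of 3 reads cover counting error only, and PCR reads are not independent molecules. Ratios used the deposited RPKM with no pseudocount.

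Dorsal and ventral lips of experiments 2 and 3 (2 libraries each) were compared by limma 3.58.1 with trend (R 4.3.3) on log2(RPKM + 0.5), two-sided, over 16479 transcripts averaging 1 RPKM or more, with Benjamini-Hochberg adjustment and a threshold of 0.05. Differences are on the log2(RPKM + 0.5) scale, which understates changes of low genes. The fit was also run on simulated data without any difference between experiments, so that run gives no error rate for these libraries. The main fit used the deposited RPKM without rescaling. Median-ratio factors, which replaced the TMM factors that had been planned, entered only in alternative settings. The numbers mark experiments, per the file headers. The main fit, which gave the p-values unless the block is named, had no term for the experiment. Pairing by number entered only in the alternative fit with the block. Deviations of same-numbered lips from the mean of their side correlated at 0.926, 0.881 and 0.819. Those means include experiment 1, which stands apart, so the values for experiments 2 and 3 cannot by themselves show pairing. Python 3.11.15 and scipy 1.17.1 were used for the rest.

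Members and gene lists were chosen with earlier results of these data known. Named by rule were, per class, up to 10 transcripts with their own symbol, the same direction in experiments 2 and 3 and at least 20 RPKM in the embryo or a lip of experiment 1, and the 4 most abundant of each list. Columns belonging to no sample numbered 0.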

Additional observations from a re-analysis of the deposited data

Results flagged for a closer look

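In 16 members of the 4 classes, both lips of experiment 1, or the lip that defined the class, lay on one side of the whole embryo and the corresponding lips of experiments 2 and 3 all lay on the other. The difference between experiments was not tested, and all ratios share 1 embryo library. The values below are mean log2 ratios to the embryo in experiments 2 and 3.

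Of the 8 flagged ventral members, the homeobox genes msx1.L and msx1.S stood lowest, at -3.27 and -2.39. The Notch ligand dlc.L had -1.66, brachyury t.L -0.96, dlx3.S -0.88, rhou.L -0.63, TFAP2A (Xelaev18033390m) -0.49 and bambi.S -0.37. Among the 4 dorsal members, SLC34A2 (Xelaev18005184m) had -3.01, prdm14.S -0.86, TSC22D3 (Xelaev18038497m) -0.52 and YRDC (Xelaev18038703m) -0.16. The 2 flagged members enriched in both lips were Xelaev18000342m at -1.38 and fos.L at -0.59. The 2 flagged depleted members, FAM208B (LOC100158565.S) and Xetrov90010149m.S, stood above the embryo at 0.85 and 0.59.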

How the results depend on the processing

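The class sizes depended on the limits and on the lips used. At 1.5-fold they were 179 depleted, 89 enriched, 96 dorsal and 53 ventral, and at 3-fold 17, 10, 15 and 2. With a minimum of 1 RPKM they were 131, 67, 77 and 39, and with 20 RPKM 15, 3, 13 and 10. From the lips of experiments 2 and 3 they were 549, 1119, 21 and 5, of which 33, 5, 14 and 3 were shared with experiment 1, and from the mean of all 3 lips of a side 171 depleted, 494 enriched and 5 ventral, sharing 35, 10 and 3. The cause was not tested. Between later lips, 689 transcripts were called by limma, 339 with no filter on low values, 54 with all 3 experiments and 1107 by the authors' deposited adjusted p, an alternative chosen after seeing the data. The pairing of libraries by experiment, fitted as a replicate block, gave 1642. The fit with all 3 experiments had no such block. Leaving out 1 library gave 525 to 1941, the highest without dorsal lip replicate 2, where the remaining dorsal library is assumed to vary like the others. Of the dorsal members, 32 were called, 21 with all 3 experiments and 30 to 33 with 1 library left out. Of the ventral members, 19 were called, 10 with no filter, 7 with all 3 experiments and 18 to 20 with 1 library left out. The block gave 34 and 19. In the lips of experiments 2 and 3, 28 log2 ratios that defined a class changed sign among named transcripts; ratios that defined no class are not counted. In dorsal lips these were plekhg5.L 0.19, Xelaev18005184m -2.99, Xelaev18038497m -0.52, Xelaev18038703m -0.16, pgam1.S 0.01, LOC100158565.S 0.59, Xetrov90010149m.S 0.28, prdm14.S -0.85, fos.L -0.46 and Xelaev18000342m -1.15. In ventral lips they were egr1.L -0.79, bambi.S -0.37, dlx3.S -0.86, msx1.S -2.37, msx1.L -3.26, Xelaev18033390m -0.47, pgam1.S 1.41, fos.S -0.95, LOC100158565.S 1.11, rhou.L -0.62, Xelaev18038702m -0.69, LOC100494089.L -2.43, Xetrov90010149m.S 0.92, velo1.L 0.71, dlc.L -1.58, fos.L -0.69, t.L -0.88 and Xelaev18000342m -1.45. Depth limits the ratios of transcripts with few embryo reads, such as junb.1 with 4.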
